A study of Danio rerio with 9 samples.

Results

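The transcripts described here are the mRNAs of zebrafish caudal fin that stood at least 2-fold above intact fin on the log2(value + 1) scale at 3 days post amputation (dpa) and held that level, within a narrow band, at 7 dpa. A transcript belonged to the set when the group mean of log2(value + 1) was at least 1 above intact fin at both times, differed by at most 0.25 between the times, reached a mean value of at least 10 at 3 dpa and was above 0 in at least 1 intact library. By this rule 56 of the 55393 mRNA transcripts in the table were members. The members were chosen by the values of these same 9 libraries, so their rises and their flat course are descriptions and not tests.

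The study compared whole transcriptomes of wild-type caudal fins. One group was the intact fin (0 dpa, 3 libraries), and the others were regenerating fins collected 3 dpa and 7 dpa after removal of the caudal fin (3 libraries each). The labels name no strain, age, sex or drug, and do not say whether a library came from 1 fish or from several, so the spread between libraries may be technical. The libraries were strand-marked preparations of total RNA, and the value of a transcript is a signal whose unit is not given in the sources used here.

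A zebrafish caudal fin regrows after amputation in an ordered series of steps. Epidermis closes the wound, and cells beneath it lose part of their specialised character and divide to form the blastema. The blastema then drives outgrowth, while bone, connective tissue, vessels and nerves are restored further from the tip. A fin therefore holds wound epidermis, dividing blastema and maturing ray tissue in proportions that shift with time. In RNA from a whole fin, more cells of a type and more RNA per cell cannot be told apart.

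Neither the deposited table nor the name tables used pair these IDs with genes, and 0 of the 56 members were matched. Members with an ENSDART ID are called annotated and those with a TCONS ID, given to transcripts assembled from the reads, are called assembled. No gene role, chromosome position or fin marker level can be given, and the tissue label could not be checked against markers. Members that come from the same gene cannot be recognised, and such transcripts share reads, so the members are not independent of one another.

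Over all 9 libraries the mRNA values summed to between 406536 and 441930 per library. Libraries of the same group correlated at 0.948 to 0.967 across the 25001 transcripts with a value of at least 1 in at least 3 libraries, which is a description across transcripts and not across samples. Sequencing depth is unknown because the table holds no counts. All 56 members passed that filter on low values.

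A 7 dpa level that met the rule was the exception among transcripts that were high at 3 dpa. In all, 1126 transcripts met the 3 dpa criteria of the rule, and the 56 members were 4.97% of them. At 7 dpa 702 of the 1126 (62.3%) were under the threshold of 1 above intact fin. Some of these were within 0.25 of their 3 dpa level, such as ENSDART00000063665 (-0.06) and ENSDART00000015755 (-0.11). The 4.97% is therefore not the share of all transcripts with a flat course. A further 361 (32.1%) were still at least 1 above intact fin but more than 0.25 below their 3 dpa level. Only 7 (0.622%) were more than 0.25 above it. Over the 1126 transcripts the median difference of 7 dpa from 3 dpa was -0.72 on the log2(value + 1) scale, and a median of 54.0% of the 3 dpa log2 difference from intact fin was kept. Between 50% and 75% was kept by 538 transcripts, between 75% and 100% by 113, and more than 100% by 28. Between 25% and 50% was kept by 394 and between 0% and 25% by 48, while 5 were at or below intact fin. The 1126 were chosen by high 3 dpa values, and the part of that choice in the lower 7 dpa levels was not tested.

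**Figure D1:**
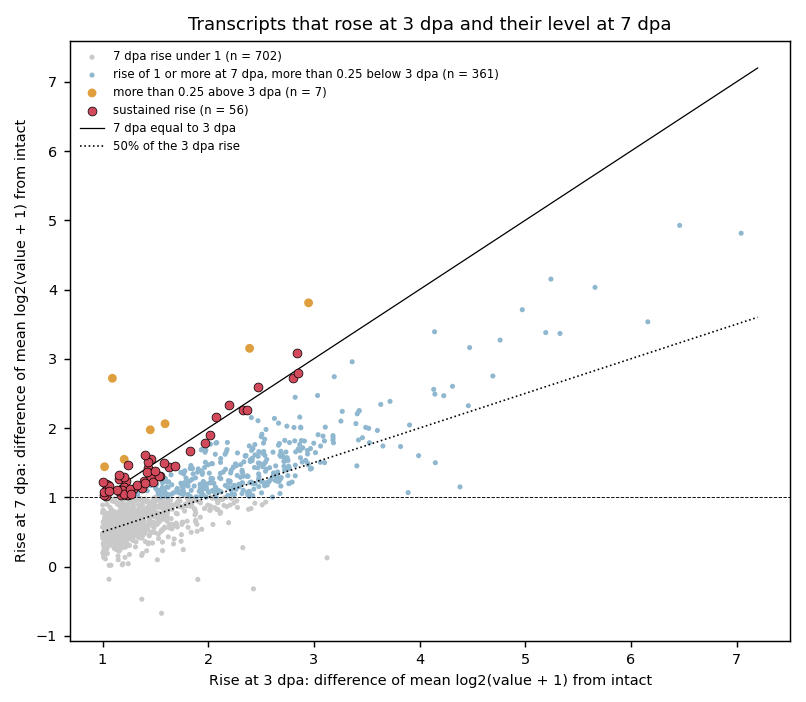
Difference of each group from intact fin on the log2(value + 1) scale, 3 dpa on the horizontal and 7 dpa on the vertical axis, for the 1126 transcripts that met the 3 dpa criteria; each point is a transcript. The 56 members lie along the line of equal level, while most others lie near the dotted line at 50% of the 3 dpa difference.

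Members tended to lie at the low end of the 3 dpa differences. The median member was 1.35 above intact fin at 3 dpa (log2 scale, range 1.00 to 2.85), against a median of 1.48 and a maximum of 7.04 over the 1126. Of the 582 transcripts with a 3 dpa difference between 1 and 1.5, 39 (6.70%) were members. The shares were 8 of 233 (3.43%) between 1.5 and 2, and 9 of 311 (2.89%) at 2 or more. A band of fixed width admits a larger relative loss when the difference is small, so these shares are set in part by the rule.

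At 7 dpa the members' median difference from intact fin was 1.26 (range 1.02 to 3.08). They kept 82.2% to 122% of the 3 dpa log2 difference, with a median of 96.5%. The summed value of the members made up 0.285% ± 0.030 (SD, n = 3) of the mRNA total before amputation, 0.776% ± 0.036 at 3 dpa and 0.705% ± 0.035 by 7 dpa. By library the shares were 0.292%, 0.310% and 0.252% in the intact libraries, 0.736%, 0.789% and 0.804% at 3 dpa, and 0.717%, 0.732% and 0.665% at 7 dpa. The intact libraries lay below all others, and the lowest 3 dpa library lay just above the highest 7 dpa library.

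**Figure D2:**
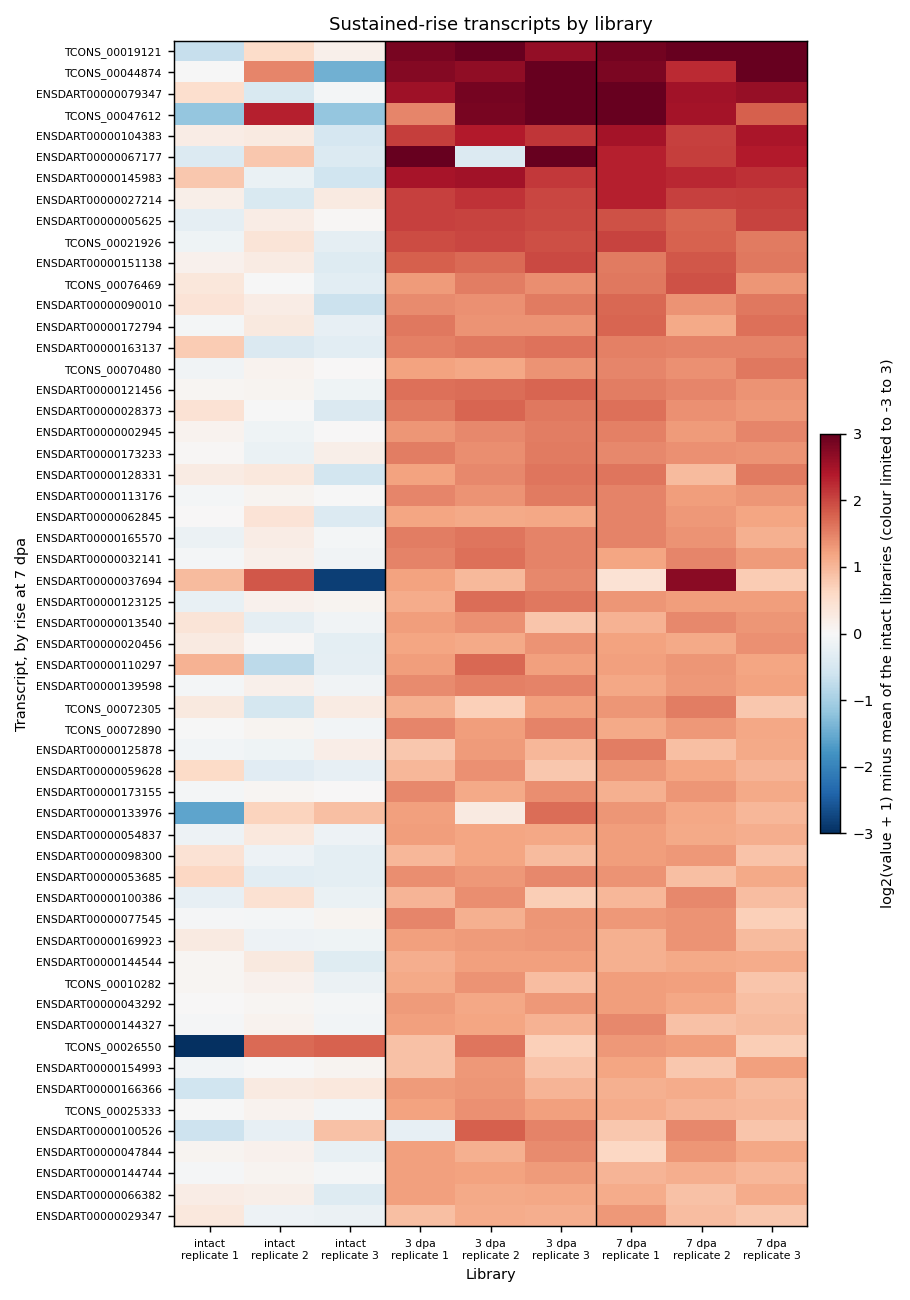
Values of the 56 members in the 9 libraries, each as log2(value + 1) minus the mean of the 3 intact libraries of that transcript; colours are limited to -3 to 3 and rows are ordered by the difference at 7 dpa. Most rows are even in colour from 3 to 7 dpa, and a few rows, such as ENSDART00000037694 and TCONS_00026550, have a single intact library far below the others.

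Each transcript of the table was fitted with limma on log2(value + 1), with all 9 libraries in one model and p-values adjusted over 25001 transcripts by the Benjamini-Hochberg method. At 3 dpa 51 of the 56 members were called higher than intact fin at an adjusted p under 0.05, where 22.0% of all tested transcripts were called higher. At 7 dpa 50 of 56 were called higher, where the share of all tested transcripts was 12.4%. Because the rule used both contrasts, nothing is read from these shares. The calls are of interest for the members that lacked one, which are described below.

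The most abundant members were annotated transcripts. Abundance here means the size of the deposited value, which may not be comparable between transcripts because its unit is not given. ENSDART00000144544 had values of 304.41, 355.34 and 226.19 in the intact libraries, 624.13, 681.01 and 682.94 at 3 dpa, and 613.80, 639.88 and 626.64 at 7 dpa. All regenerate libraries lay above the intact ones, and those of both times overlapped. Its difference from intact fin was 1.19 (SE 0.14) at 3 dpa and 1.11 (SE 0.14) at 7 dpa on the log2 scale. ENSDART00000144744 had 173.50, 186.75 and 169.62 in the intact libraries, 412.47, 406.85 and 432.31 at 3 dpa, and 361.39, 376.24 and 350.17 at 7 dpa. Here the 7 dpa libraries were all below the 3 dpa libraries, by 0.20 on the log2 scale (95% interval 0.06 to 0.34 lower), and it was the single member called different between the times by limma (adjusted p = 0.0499). This call was lost in 13 of 20 settings, with adjusted p up to 0.165. Of all tested transcripts 10.4% were called lower and 11.2% higher at 7 than at 3 dpa.

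A similar small step down between the times was seen in other abundant members, none of them called by limma in the fit reported here. Of the 20 other settings, ENSDART00000139598 was called between the times in 8, ENSDART00000121456 in 4 and TCONS_00025333 in 3, each of them lower at 7 dpa. In ENSDART00000139598 the values were 79.68, 91.81 and 77.44 in the intact libraries, 222.30, 237.23 and 235.31 at 3 dpa, and 185.97, 204.78 and 193.55 at 7 dpa. ENSDART00000121456 went from 58.00, 58.72 and 50.70 to 176.11, 178.85 and 188.61, and stood at 162.17, 156.57 and 142.17 at 7 dpa. In both, every 7 dpa library was below every 3 dpa library and far above every intact one. The assembled TCONS_00025333 had 67.85, 74.04 and 64.77 in the intact libraries, 159.29, 179.26 and 163.31 at 3 dpa, and 150.02, 140.64 and 137.74 at 7 dpa. It kept 82.2% of its log2 difference, the smallest share among the members.

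In 3 of the next 4 members the times overlapped. ENSDART00000113176 had 53.43, 59.07 and 55.55 in the intact libraries, 156.87, 144.77 and 165.73 at 3 dpa, and 158.00, 135.84 and 140.92 at 7 dpa, with a difference between the times of -0.10 (95% interval -0.29 to 0.08). ENSDART00000028373 had 86.07, 62.97 and 46.22, then 186.76, 215.27 and 190.27, then 201.08, 164.13 and 156.64. Its intact libraries differed more from one another than its regenerate libraries did, as the log2 SD of 0.44 in intact fin was the highest of its 3 groups. ENSDART00000066382 had 31.55, 30.10 and 20.04 in the intact libraries, 63.52, 60.44 and 61.35 at 3 dpa, and 59.25, 49.85 and 58.59 at 7 dpa. ENSDART00000053685 had 27.01, 13.69 and 14.00, then 47.08, 43.93 and 48.75, then 45.40, 33.35 and 39.59. In ENSDART00000066382 all 7 dpa libraries were below those of 3 dpa, and in ENSDART00000053685 the times overlapped.

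For ENSDART00000110297 the intact libraries were uneven. It had 61.56, 16.84 and 24.43 in the intact libraries, 71.20, 98.87 and 70.33 at 3 dpa, and 70.76, 74.82 and 67.96 at 7 dpa. No regenerate library was below an intact one, but intact replicate 1 came within reach of the regenerates. Its difference from intact fin at 7 dpa was 1.24 (95% interval 0.38 to 2.10, limma adjusted p = 0.0412), and this call was lost in 13 of 20 settings, among them each removal of a single library except intact replicate 1, with adjusted p up to 0.115 when intact replicate 3 was left out.

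**Figure D3:**
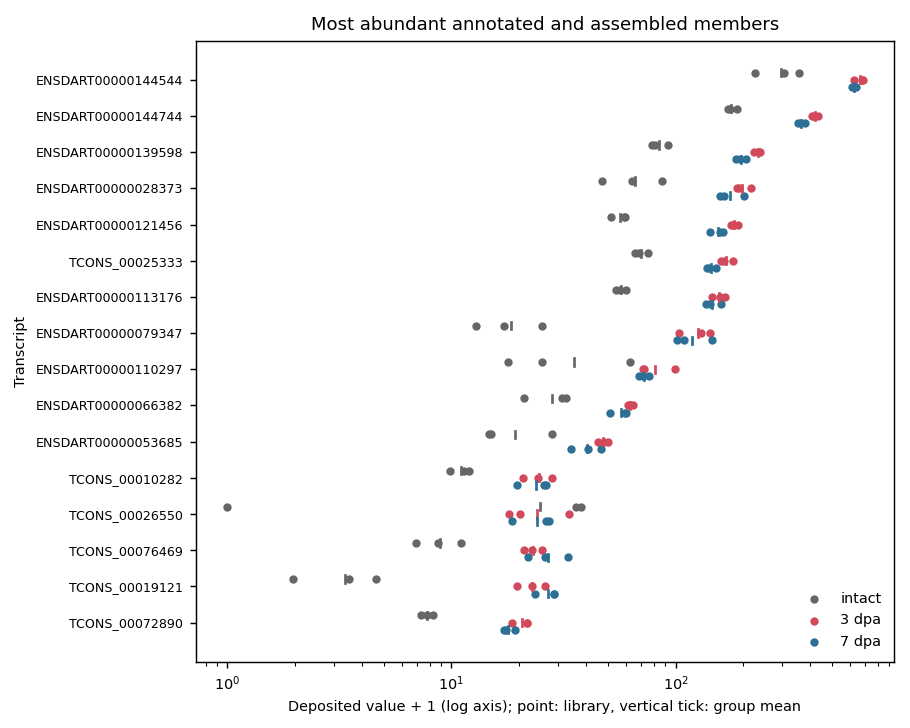
Deposited value + 1 on a log axis for the 10 annotated and 6 assembled members with the highest mean at 3 dpa; points are libraries, vertical ticks are group means, grey is intact fin, red is 3 dpa and blue is 7 dpa. Apart from TCONS_00026550, the intact libraries lie to the left of the regenerates in each row, and the red and blue points lie close together.

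The direction of the small step between the times went with abundance. Of the 8 members with a 3 dpa mean of at least 100, all 8 had a lower log2 mean at 7 dpa, with a median difference of -0.19. Of the 8 members from 30 to 100, 7 were lower, with a median of -0.09. Among the 11 members from 20 to 30 it was 5, and among the 29 under 20 it was 15, with medians of 0.03 and -0.02. The level at 3 dpa and the difference share the 3 dpa libraries, and no test was made. Over all members 35 (62.5%) were lower and 21 higher at 7 than at 3 dpa. A lower mean at 7 dpa was found in 97.5% of the 1126 transcripts that met the 3 dpa criteria and in 45.5% of all tested transcripts. The rule limited this difference in the members, so nothing is read from these shares. With quantile-normalised values the division was 28 lower of 56, so the direction of the set as a whole depended on scaling. It was 38 lower with trimmed-mean (TMM) factors and 36 with equal library totals.

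The members with the largest differences lay more than 2 above intact fin on the log2 scale. Among members with all intact values above 0, 6 had a 3 dpa difference of at least 2. ENSDART00000079347 had the highest values of these, with 24.34, 11.92 and 16.21 in the intact libraries, 102.64, 128.32 and 142.18 at 3 dpa, and 143.82, 100.69 and 107.75 at 7 dpa. Its mean went from 17.5 ± 6.31 (SD, n = 3) to 124 ± 20.1 and 117 ± 23.1, or 2.80 (SE 0.24) and 2.72 (SE 0.24) above intact fin. The times overlapped fully. TCONS_00019121, an assembled transcript, had 0.96, 3.63 and 2.51 in the intact libraries, 21.80, 25.12 and 18.59 at 3 dpa, and 22.50, 27.64 and 27.78 at 7 dpa. It had the largest 7 dpa difference of all members, 3.08 (SE 0.27), and was near the upper edge of the band at 0.24 above 3 dpa.

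The other 4 of these members were less abundant and annotated. ENSDART00000145983 had 4.65, 1.79 and 1.11 in the intact libraries, 16.93, 17.42 and 12.96 at 3 dpa, and 15.07, 14.31 and 13.66 at 7 dpa. ENSDART00000104383 had 2.84, 2.95 and 1.30, then 12.76, 15.86 and 13.53, then 17.45, 12.50 and 16.78. In both, the lowest regenerate library was more than 2 times the highest intact library. ENSDART00000027214 had 4.12, 2.30 and 4.38 in the intact libraries, 17.52, 19.10 and 17.12 at 3 dpa, and 21.80, 17.72 and 18.06 at 7 dpa. ENSDART00000005625 had 1.73, 2.88 and 2.40, then 12.76, 12.48 and 11.93, then 11.43, 10.10 and 12.43. The 3 dpa libraries of this last transcript were nearly equal, and its difference from intact fin was 2.02 (95% interval 1.72 to 2.32) at 3 dpa and 1.90 (95% interval 1.59 to 2.20) at 7 dpa.

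Assembled transcripts made up 11 of the 56 members (19.6%). They made up 9.25% of the 1070 other transcripts that met the 3 dpa criteria and 20.6% of all tested transcripts. The ID class played no part in the rule. The assembled members kept a median of 103% of the 3 dpa difference, against 95.02% in the 45 annotated members. The assembled median is the value of TCONS_00026550, which met the rule only through an intact value of 0. An intact 0 occurred in 3 of the assembled and 2 of the annotated members. A lower log2 mean at 7 dpa was seen in 5 of 11 assembled and in 30 of 45 annotated members. Of the 8 members with a 3 dpa mean from 30 to 100, 0 were assembled, and of the 8 at 100 or more, 1 was. Class and level were therefore not separated in this comparison. These are counts over a small set, and no test was made.

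Among the abundant assembled members TCONS_00010282 was even across times, with 10.42, 10.99 and 8.82 in the intact libraries, 23.36, 27.23 and 19.90 at 3 dpa, and 25.49, 24.80 and 18.57 at 7 dpa. TCONS_00076469 had 10.01, 7.67 and 5.96, then 20.06, 24.46 and 21.93, then 25.11, 32.04 and 20.96, with the highest library at 7 dpa. TCONS_00072890 had 6.76, 7.27 and 6.35 in the intact libraries, 20.65, 17.55 and 20.81 at 3 dpa, and 16.16, 18.29 and 16.48 at 7 dpa. In these 3 transcripts the groups of both times overlapped, and neither overlapped the intact fin. TCONS_00070480 was the single member whose 7 dpa libraries (14.53, 13.60 and 15.85) all lay above those of 3 dpa (12.06, 11.57 and 13.28). Its intact values were 4.26, 5.04 and 4.64.

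How flat a member was could be measured only within the spread of 3 libraries per group. The model estimated 1 spread over all 3 groups, so uneven intact libraries widened the 95% interval between 7 and 3 dpa. In ENSDART00000163137 it was -0.68 to 0.52, although the values were 28.22 to 30.71 at 3 dpa and 27.67 to 28.17 at 7 dpa. Its intact values were 16.34, 6.52 and 7.13. The widest interval was that of TCONS_00026550, which has an intact value of 0. The 95% interval of the difference between 7 and 3 dpa reached a median of 0.40 to either side on the log2 scale (range 0.14 to 2.67). It lay within 0.25 of 0 in 1 member, ENSDART00000002945, and within 0.5 of 0 in 24 of 56. In 48 of 56 it lay within 1. For most members a change of more than the band is therefore inside the interval. The libraries of 3 and 7 dpa had ranges that did not overlap in 8 of 56 members (7 with 3 dpa higher, 1 with 7 dpa higher), where 41.0% of all tested transcripts had such ranges. An unadjusted p under 0.05 between the times was found in 6 of 56 members, where the share of all tested transcripts was 35.0%. The rule kept only small differences between the times, so both low counts follow from it.

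**Figure D4:**
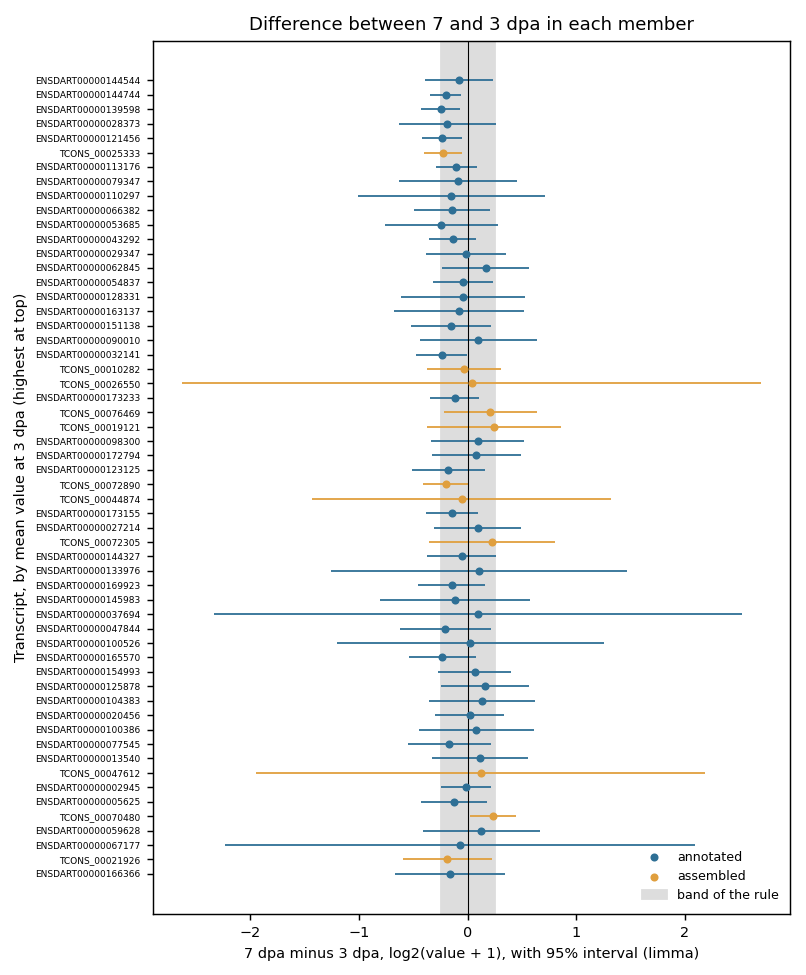
Difference of the log2(value + 1) group means, 7 dpa minus 3 dpa, with its 95% interval from limma for each of the 56 members, ordered by mean value at 3 dpa with the highest at the top; blue is annotated, orange assembled and the grey strip the band of the rule. The points of the top 8 rows all lie to the left of 0, and most intervals reach beyond the grey strip. The intervals use a spread estimated over all 3 groups, intact fin included.

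The rise itself was bounded more firmly in some members than in others. The 95% interval of the difference from intact fin lay wholly at or above 1 at 3 dpa in 25 of 56 members, at 7 dpa in 20, and at both times in 18. The rule required both differences to be at least 1, and the share over all tested transcripts is not given here. Nothing is therefore read from these counts about the set. Every 3 dpa library lay above every intact library in 50 of 56 members, where the share of all tested transcripts was 25.9%. Every 7 dpa library did so in 52 of 56, where the share was 18.7%. Among the 1070 other transcripts that met the 3 dpa criteria, such separation was seen in 1061 at 3 dpa and in 972 at 7 dpa. Of these 1070, 702 were under the 7 dpa threshold. In the 361 that were at least 1 above intact fin at both times but lower at 7 dpa, it was seen in 361 and 358. The rule used group means, so it favoured such separation without requiring it, and no test was made.

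In the remaining 6 members at least 1 regenerate library overlapped the intact ones, and as a group these were singled out after their values were seen. TCONS_00026550, ENSDART00000037694 and ENSDART00000067177 were also the 3 named for the largest SD within a group. TCONS_00026550 had 0, 34.99 and 36.74 in the intact libraries, 19.31, 32.62 and 17.12 at 3 dpa, and 26.14, 25.37 and 17.57 at 7 dpa. Its linear mean was 23.9 in intact fin and 23.0 at both later times, so it met the rule through intact replicate 1, which is listed at 0. Without that library its differences were -0.67 at 3 dpa and -0.64 at 7 dpa. ENSDART00000037694 had 12.70, 24.91 and 0 in the intact libraries, 15.37, 12.91 and 18.13 at 3 dpa, and 8.64, 44.99 and 10.91 at 7 dpa. Without intact replicate 3 its differences were -0.21 and -0.11. For both transcripts a single value of 0 decided the direction.

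ENSDART00000133976 had 1.59, 11.31 and 13.53 in the intact libraries, 17.26, 8.37 and 23.73 at 3 dpa, and 18.49, 16.41 and 14.42 at 7 dpa. Its differences of 1.06 and 1.17 became 0.27 and 0.38 without intact replicate 1. ENSDART00000100526 had 3.42, 4.70 and 11.37, then 4.69, 22.45 and 18.12, then 10.96, 17.50 and 11.14. In this transcript 3 dpa replicate 1 lay among the intact libraries, and without that library the 3 dpa difference was 1.64 in place of 1.01 and was called (limma adjusted p = 0.0119). Without 3 dpa replicate 2 it was 0.62. ENSDART00000067177 had 0, 1.29 and 0 in the intact libraries, 15.70, 0 and 16.43 at 3 dpa, and 5.64, 4.51 and 5.89 at 7 dpa. It had the lowest intact mean of the members. Without 3 dpa replicate 2 its 3 dpa difference was 3.69 in place of 2.33, far above the 2.26 at 7 dpa. Both differences from intact fin were then called (limma adjusted p = 0.000106 and 0.0022). The difference of 7 dpa from 3 dpa was then -1.43 and was called too (limma adjusted p = 0.026), so the course was not flat without that library.

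TCONS_00047612 had 0, 10.21 and 0 in the intact libraries, 5.17, 15.07 and 18.46 at 3 dpa, and 24.43, 11.64 and 6.70 at 7 dpa. It was called at 3 dpa (limma adjusted p = 0.0485) and not at 7 dpa (limma adjusted p = 0.0674). The 3 dpa call was lost without intact replicate 1 or 3, without 3 dpa replicate 2 or 3 or without any 1 of the 7 dpa libraries, with adjusted p up to 0.1501. Without intact replicate 2 its differences were 3.64 and 3.76 in place of 2.476 and 2.596, and both were called (limma adjusted p = 0.00136 and 0.00398). The other 5 of these 6 members were called at neither time with all 9 libraries. On the linear scale 53 of 56 members had a 7 dpa mean at least 2 times the intact mean, and the 3 below that were TCONS_00026550 (0.963 times), ENSDART00000037694 (1.72 times) and ENSDART00000133976 (1.87 times).

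A value of 0 in intact fin occurred in 5 members, 3 with 1 and 2 with 2 such libraries. The fifth of these, TCONS_00044874, did not overlap intact fin at either time, with 1.68, 6.42 and 0 in the intact libraries, 17.14, 16.16 and 22.74 at 3 dpa, and 18.09, 11.68 and 26.18 at 7 dpa. Its fitted difference of 2.85 at 3 dpa depends on how the 0 is treated. No transcript met all the other criteria with every intact value at 0.

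In the members, libraries of the same group differed most in intact fin. The median within-group SD of the members on the log2 scale was 0.33 among intact libraries, 0.13 at 3 dpa and 0.18 among those of 7 dpa. Over the 1070 other transcripts that met the 3 dpa criteria the medians were 0.18, 0.11 and 0.15, and over all tested transcripts 0.18, 0.15 and 0.17. The intact fin had the largest SD of the 3 groups in 39 of 56 members (69.6%), in 51.3% of the 1070 others and in 38.2% of all tested transcripts. Intact replicate 3 held the lowest of the 3 intact values in 28 members. At 7 dpa replicate 1 held the highest value in 30 members and replicate 3 the lowest in 27. These counts by library were made over the members only, so they cannot be set against all tested transcripts. The part of these library differences in the choice of members was not tested.

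Values in libraries that the rule did not see were also read. The rule held the values it used within the band, so a less flat course in the libraries left out was fixed in advance. The rule was applied again to the libraries of 2 replicate numbers, and the transcripts found were read in the 3 libraries of the remaining number. Without replicate 1 the rule found 53 transcripts, 34 of them members. In the libraries left out the median difference between 7 and 3 dpa was -0.01, and 23 of 53 (43.4%) lay within the band. Without replicate 2 it found 60 transcripts with a median of -0.28 in the libraries left out, and 22 (36.7%) lay within the band. Without replicate 3 it found 66 with a median of -0.24, and 25 (37.9%) lay within the band.

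The corresponding medians in the libraries that were used lay between -0.10 and -0.05. The other transcripts that met the 3 dpa criteria had medians of -0.69, -0.64 and -0.84 in the libraries left out, and 10.5%, 12.2% and 3.61% of them lay within the band there. These others were outside the band or under the 7 dpa threshold in the libraries used. The contrast with them was therefore set in part by the choice, and nothing is read from it. A single library per group is less precise than a mean of several. The labels do not say whether replicate numbers tie libraries together across groups. The difference from intact fin at 3 dpa had medians of 1.09, 1.09 and 1.49 in the libraries left out, and the difference at 7 dpa 1.01, 0.85 and 1.21. All 3 criteria of difference were met in the libraries left out by 15 of 53, 13 of 60 and 18 of 66 transcripts.

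**Figure D5:**
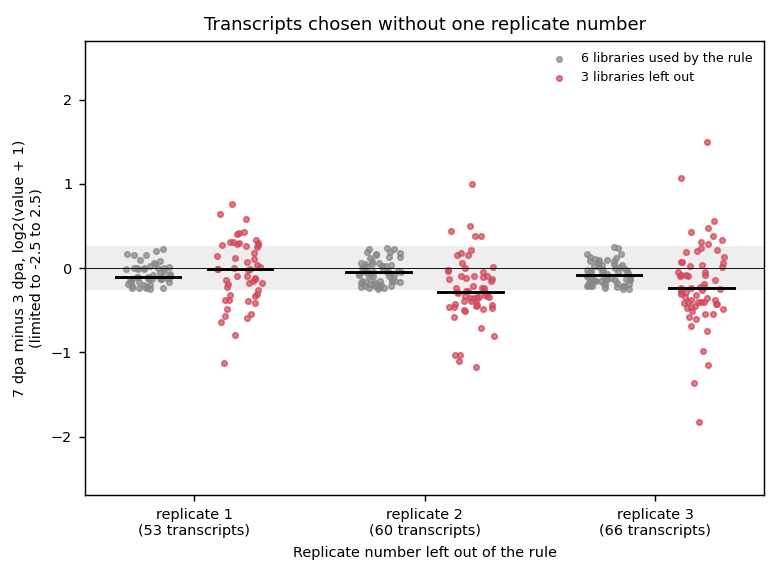
Difference between 7 and 3 dpa on the log2(value + 1) scale for the transcripts found when the rule was applied without the libraries of 1 replicate number; grey points are means over the 6 libraries used, red points come from the 3 libraries left out, black bars are medians and the pale strip is the band. The grey points lie within the strip by construction, and the red points spread beyond it with medians of -0.01, -0.28 and -0.24.

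Members differed in how far their selection depended on single libraries. The counts that follow apply the same rule again to libraries that chose the members. Remaining a member is therefore a description of the selection and not a test of a flat course. Of the 56, 16 were found in all 3 of these reduced sets, 24 in 2, 11 in 1 and 5 in none. With any single library left out, 18 members remained members in all 9 cases. All but ENSDART00000144744 of these 18 also remained with TMM factors, quantile normalization and equal library totals, which leaves 17. Of these 17, 12 were also found in all 3 reduced sets, 4 in 2 and 1, ENSDART00000013540, in 1. The 17 include ENSDART00000113176, ENSDART00000079347, ENSDART00000027214, ENSDART00000145983, ENSDART00000005625 and TCONS_00010282, whose values are given above.

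Further members of these 17 had intermediate levels. ENSDART00000043292 had 17.92, 18.53 and 16.98 in the intact libraries, 44.24, 41.07 and 45.44 at 3 dpa, and 43.86, 40.99 and 34.05 at 7 dpa. ENSDART00000054837 had 13.28, 18.63 and 13.26, then 37.14, 34.76 and 34.52, then 36.89, 33.79 and 32.52. In both, the groups of 3 and 7 dpa overlapped and lay well above intact fin. ENSDART00000163137 had 16.34, 6.52 and 7.13 in the intact libraries and 28.22, 29.60 and 30.71 at 3 dpa, and its 7 dpa values of 28.17, 27.68 and 27.67 were the closest set among the members on the log2 scale at that time. ENSDART00000151138 had 8.36, 9.15 and 5.54, then 28.63, 26.83 and 32.45, then 24.30, 29.81 and 24.64. ENSDART00000173233 had 7.42, 6.18 and 8.23, then 22.87, 20.75 and 23.33, then 21.32, 20.13 and 19.87.

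Both of the next members of this group had 3 dpa means under the median of the members and differed little between the times. ENSDART00000002945 had 4.39, 3.57 and 4.02 in the intact libraries, 11.48, 12.45 and 13.55 at 3 dpa, and 13.17, 11.14 and 12.74 at 7 dpa. Its difference between the times was -0.02 (95% interval -0.25 to 0.22), and its differences from intact fin were 1.43 (SE 0.10) and 1.42 (SE 0.10). ENSDART00000020456 had 6.54, 5.41 and 4.13, then 13.22, 12.79 and 15.10, then 13.60, 12.87 and 15.21, and its difference between the times was 0.02 (95% interval -0.30 to 0.34). ENSDART00000090010 stood slightly higher at 7 dpa, with 13.35, 11.49 and 5.93 in the intact libraries, 27.93, 26.87 and 30.71 at 3 dpa, and 34.54, 26.43 and 31.13 at 7 dpa. The other 3 were ENSDART00000128331, ENSDART00000173155 and ENSDART00000013540, with intact means of 11.05, 6.52 and 5.42, 3 dpa means of 30.3, 17.9 and 13.2, and 7 dpa means of 29.7, 16.0 and 14.3.

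Transcripts next to the thresholds show how much the borders matter. The 3 dpa difference was smallest in TCONS_00072305 (1.00), and TCONS_00063429 missed that threshold at 0.998. At 7 dpa ENSDART00000029347 was nearest inside at 1.02 and TCONS_00030530 nearest outside at 0.992. At the lower edge of the band ENSDART00000139598 was inside at -0.249 and ENSDART00000159594 outside at -0.251. The latter had a mean of 9.49 before amputation, 38.5 at 3 dpa and 32.2 by 7 dpa, and so a larger difference from intact fin than most members. At the upper edge TCONS_00019121 was inside at 0.24 and ENSDART00000157441 outside at 0.34, so the upper edge was thinly filled and the lower edge densely filled. The lowest 3 dpa mean inside was 10.2 in ENSDART00000166366, and ENSDART00000140841 missed it with 9.90.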

How the data were processed

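Per the submitters' processing notes, cutadapt, TopHat2 2.0.3.12, RSEM and edgeR were used, with no role given, and a human build is named although the organism is zebrafish; the zebrafish build is not given in the sources used here. The mRNA table, as deposited by the authors, gives each transcript a signal in each library, rounded to 2 decimals and not a whole count, so the depth is unknown. The lncRNA and circRNA tables were not used here.

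Members were found by the rule in the whole table. Tests used limma 3.58.1 in R 4.3.3 (trend and robust, two-sided) on log2(value + 1), with 9 libraries in one model, no covariate, and transcripts at a value of at least 1 in at least 3 libraries; the scale understates changes of low transcripts. TMM factors were computed on the deposited signal. Scripts were tested on simulated data. The members, lists and alternatives were chosen with earlier results of these data known. Named transcripts were the 10 annotated and 6 assembled members highest at 3 dpa, the 6 with the largest 3 dpa difference and no intact 0, the 3 with the largest SD within a group, and those nearest each threshold; the rest were chosen after their values were seen. The 10 gene lists (189 genes) matched 0 members.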

Additional observations from a re-analysis of the deposited data

Results flagged for a closer look

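ENSDART00000144744 was the single member whose differences from intact fin were called different between the times. The difference at 7 dpa was lower than that at 3 dpa by 0.20 (log2 value -0.202, limma adjusted p = 0.0499), with all 3 libraries of 7 dpa below all 3 of 3 dpa. The call was lost in 13 of 20 settings, with adjusted p up to 0.165. Because the rule removed members with larger differences between the times, no statement about the set follows from it.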

How the results depend on the processing

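The number of transcripts that met the rule was 60 with TMM factors (48 of them members), 66 with quantile normalization (45), 64 with equal library totals (51) and 45 to 69 with a single library left out, with 38 to 49 members kept. Group medians gave 55, of which 37 were members. Other thresholds gave 34 (band 0.15), 108 (band 0.5), 90 (rise of at least 0.8), 11 (rise of at least 1.5) and 27 (3 dpa mean at least 20). Of the 56 members, 50 to 52 were called at 3 dpa and 49 or 50 at 7 dpa with a single library left out. Over all tested transcripts, 4602 of 24613 to 5516 of 24701 were then called higher at 3 dpa. At 7 dpa it was 2297 of 24624 to 2865 of 24612. The rule used all 3 contrasts, so nothing is read from the counts of members. Between the times 1 member was called, against 6 at an unadjusted p under 0.05. Limma called 4 with TMM factors, 4 with equal totals and 4 with a filter at 5. It called 0 with no filter, 0 without the robust setting, 0 without the trend, and 0 to 3 with a library left out. Over all tested transcripts, TMM factors gave 2449 called higher and 3033 lower of 24917. With equal totals it was 2620 and 2796 of 24955, and with a filter at 5 it was 2338 and 2319 of 12567. With no filter it was 2117 and 2105 of 47172. Without the robust setting it was 2816 and 2611 of 25001, and without the trend 2699 and 2430 of 25001. Single removals gave from 1636 and 1594 of 24613 to 2748 and 2632 of 24378. Leaving out intact replicate 1 reversed TCONS_00026550, whose values ranged from -0.67 to 1.95 at 3 dpa and from -0.64 to 1.98 at 7 dpa over single removals. Leaving out intact replicate 3 reversed ENSDART00000037694, which ranged from -0.21 to 2.14 and from -0.11 to 2.23. Both had a value of 0 in that library. Deviations of libraries with the same replicate number were weakly correlated (-0.023 to 0.071, none over 0.1), against -0.114 to 0.056 for other numbers. With 3 libraries per group these values cannot decide whether the numbers tie libraries together, and the labels do not say. With the number as a replicate block 50, 49 and 1 members were called, the last being ENSDART00000139598. Over 25001 tested transcripts that block gave 5312 and 2736 called higher than intact fin. Between the times it gave 2383 higher and 2236 lower. Unknown depth leaves the precision of low values unstated.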
